A study of Mus musculus with 16 samples.

Results

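Il21 and Il4 encode the helper cytokines interleukin 21 and interleukin 4, and both were higher after myocardial infarction than after a sham operation in heart-specific CD4+ T cells, while neither passed the test in the other CD4+ T cells of the recipients. They were taken as the 2 genes with exactly these symbols in the authors' deposited tables of genes that differed between infarction and sham, out of 269 genes named there by 1 symbol. Each has 1 probe set in these tables. Most of the 41345 probe sets on the array are unnamed there, so further probe sets for the 2 genes could not be sought. Both stand in the authors' table for the heart-specific cells and neither in the table for the recipients' cells, so the members were chosen by their fold and p in the heart-specific cells, and their difference there is given as a description with no test.

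Whole transcript array signal was read in 16 samples of CD4+ TCRbeta+ cells sorted from mediastinal (heart-draining) lymph nodes. The cells called TCRM were CD4+ T cells carrying Thy1.1 and a transgenic receptor for cardiac myosin, purified from naive TCR-M mice and given 1 day before the operation to wild-type, syngeneic Thy1.2 recipients (male balb/c, 8 to 12 weeks old). The cells called ENDO were the endogenous CD4+ T cells of these recipients. Both were collected on day 7 after infarction by LAD coronary ligation (5 TCRM and 5 ENDO arrays) or after thoracotomy without ligation (3 TCRM and 3 ENDO arrays), and all animals received buprenorphine. The TCRM cells carry 1 fixed receptor specificity and were transferred in from donors, and per the labels each population was sorted to above 98% purity. Whether arrays stand for separate animals is given only as the number of animals in the design, so p-values measure the spread between these arrays.

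Interleukin 21 is made chiefly by follicular helper and Th17 cells and acts through its receptor and STAT3 on B cells in germinal centres. Interleukin 4, the defining cytokine of Th2 cells, acts through its receptor and STAT6, and follicular helper cells make it too. The transcription factor Maf activates both genes in mouse helper T cells, and both are transcribed after engagement of the T cell receptor through calcium and NFAT.

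In RefSeq's GRCm38.p6 annotation Il21 lies on chromosome 3 from 37222759 to 37232636 and Il4 on chromosome 11 from 53612460 to 53618665, both on the minus strand. The build of the array's own annotation is not given in the sources used here. The long noncoding gene Gm36168 lies within the span of Il21, so the Il21 probe set cannot be told apart from it without probe positions. The nearest protein-coding genes are Il13 (12658 bases from Il4) and Kif3a (8212 bases) for Il4, and Cetn4 (75991 bases) and Il2 (96805 bases) for Il21. None of the genes within 3 places of either is named in the authors' tables, so the neighbours' signal was not analysed here.

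The 250 bases before the outermost start of each gene are shown because the 2 genes were high on the same arrays. They are RefSeq sequences of GRCm38.p6, chr3:37232637-37232886 and chr11:53618666-53618915, on the minus strand and written 5′ to 3′. Capitals mark every match on either strand to GGAAA (the core of NFAT sites) or TGCTGA (the core of Maf sites), which read TTTCC and TCAGCA on the other strand.
Il21: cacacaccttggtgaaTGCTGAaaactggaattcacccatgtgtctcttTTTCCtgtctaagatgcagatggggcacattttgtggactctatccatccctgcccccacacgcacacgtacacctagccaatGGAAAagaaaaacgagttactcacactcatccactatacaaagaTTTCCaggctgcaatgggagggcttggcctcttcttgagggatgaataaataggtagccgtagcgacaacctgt
Il4: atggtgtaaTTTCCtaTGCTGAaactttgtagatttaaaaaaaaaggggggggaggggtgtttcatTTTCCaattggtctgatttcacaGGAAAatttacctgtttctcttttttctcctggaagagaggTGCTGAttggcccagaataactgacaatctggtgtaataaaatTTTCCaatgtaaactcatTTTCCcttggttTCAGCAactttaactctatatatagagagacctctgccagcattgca
The Il21 window holds 3 matches to GGAAA and 1 to TGCTGA, and the Il4 window holds 5 and 3. Of 32851 mouse promoter windows of this length 55.6% hold GGAAA and 16.1% hold TGCTGA on either strand. In both windows 1 TGCTGA match spans bases 234 to 229 before the start. Neither window holds TGANTCA (AP-1, in 6.75% of windows), TTCNNNGAA (STAT, 7.02%), AGATAA (a motif of Gata3 and its family, 9.99%) or TATAAA (a core promoter element, 12.4%). A second RefSeq start of Il4, further inside the gene, has none of the 6 motifs in its window. A match is a run of letters and not a measured site.

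Depth has no meaning on these arrays, and their number limits the precision. Median log2 signal was 5.37 to 5.43 on the 8 TCRM arrays and 5.61 to 5.79 on the 8 ENDO arrays, and the lowest values of the arrays also fell into separate ranges (1.47 to 1.74 and 2.27 to 2.37). The populations were therefore treated as normalized separately, and levels of TCRM and ENDO cells were not tested against each other. The arrays titled infarction 5 carry the word sham in their source names. Groups taken from the titles gave the authors' averages (labelled bi-weight, and not plain means) within 0.01 for 196 of 196 TCRM probe sets they list. In ENDO cells they did so for 274 of 274. Groups taken from the source names did so for 2 and 8, so the titles were used.

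Il21 signal on the 5 TCRM infarction arrays, numbered 1 to 5, was 8.54, 8.21, 7.16, 8.14 and 7.87 on the log2 scale. On TCRM sham arrays 1 to 3 it was 5.50, 4.09 and 4.77. The infarction arrays were all higher, and the lowest of them, array 3, lay 1.65 above the highest sham array. Il4 signal on TCRM infarction arrays 1 to 5 was 7.54, 7.48, 7.23, 7.70 and 7.26. On TCRM sham arrays 1 to 3 it was 5.59, 4.97 and 5.66. Here too the groups did not overlap, with a gap of 1.57 between the lowest infarction and the highest sham array. Of all 28941 probe sets tested, 5.64% had every TCRM infarction array above every TCRM sham array. The rule used this contrast, so nothing is read from the share.

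For both genes TCRM infarction array 3 was the lowest of its group and TCRM sham array 2 the lowest of its own. The highest infarction array differed, array 1 for Il21 and array 4 for Il4. Il21 varied more than Il4 within these groups. Mean Il21 signal was 7.98 ± 0.52 on the infarction arrays (log2, SD, n = 5) and 4.79 ± 0.71 on the sham arrays (SD, n = 3). Mean Il4 signal was 7.44 ± 0.20 (SD, n = 5) and 5.41 ± 0.38 (SD, n = 3). The spreads were not tested against each other.

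**Figure D1:**
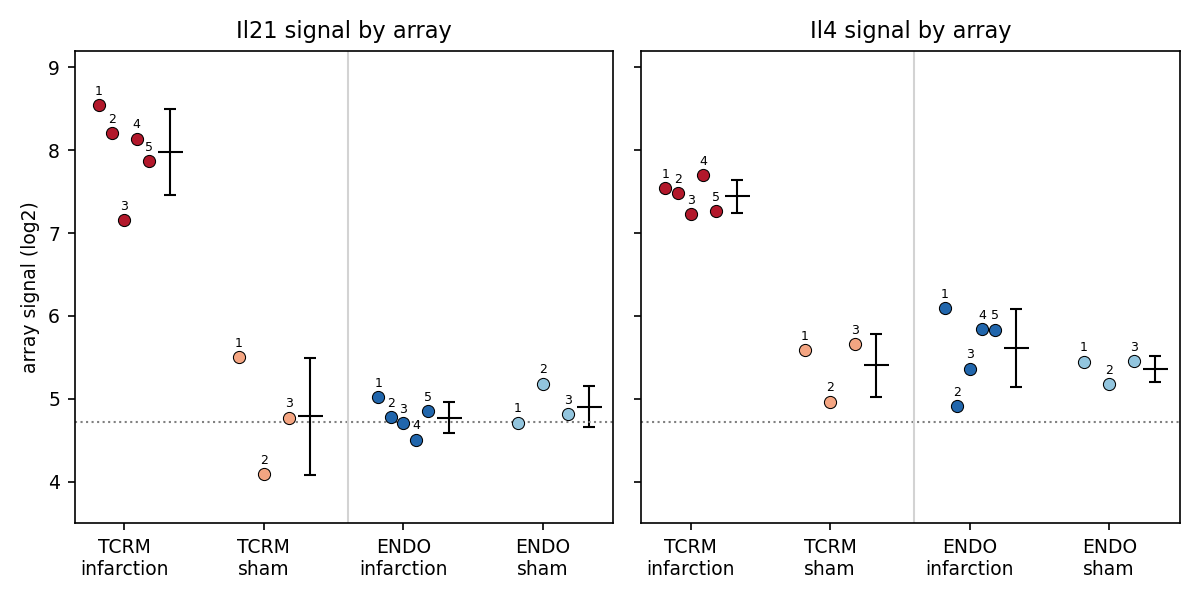
Array signal (log2) of Il21 (left) and Il4 (right) on each of the 16 arrays, with the array number beside each point and the group mean ± SD as a black bar. The dotted line is the low-signal limit of 4.72, and the grey line separates populations that were treated as normalized separately. The TCRM infarction points start at 7.16 for Il21 and 7.23 for Il4, and all other points lie at or under 6.09.

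The mean difference between infarction and sham in TCRM cells was 3.19 ± 0.30 (log2, SE) for Il21, a 9.15-fold higher signal, and 2.04 ± 0.24 (SE) for Il4, a 4.11-fold higher signal. The averages in the authors' deposited table are labelled bi-weight averages and can differ from the plain means given here. In the authors' deposited table the averages for Il21 were 8.12 and 4.78 with a fold of 10.12, p = 0.000306 and a false discovery rate of 0.122. In the authors' deposited table the averages for Il4 were 7.45 and 5.62 with a fold of 3.54, p = 5e-05 and a false discovery rate of 0.0854. Ranked by the difference of these averages, Il21 was number 3 and Il4 number 27 of 196 probe sets of that table, whose limits were 2-fold and p under 0.05. Both genes lie well inside these limits, and the smallest fold listed for any TCRM probe set in the authors' deposited table was 2.01. Probe sets outside the limits are not in the table and are unnamed here. The samples are sorted populations, so more cells making a transcript and more transcript per cell cannot be told apart. Il21 signal after sham lay close to the low-signal limit of 4.72 (the 30th percentile of mean signal), so the size of its difference is uncertain.

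The 2 genes were named through the TCRM table and not through the ENDO table, so their difference in ENDO cells was tested. Their absence from the ENDO table already showed that neither met its limits of 2-fold and p under 0.05. A missed threshold here is therefore no new result. Il21 signal on ENDO infarction arrays 1 to 5 was 5.02, 4.78, 4.71, 4.51 and 4.85. On ENDO sham arrays 1 to 3 it was 4.71, 5.18 and 4.82. The groups overlapped, 1 of 5 infarction arrays lay above the sham mean, and 3 of the 8 arrays lay under the low-signal limit. Il4 signal on ENDO infarction arrays 1 to 5 was 6.09, 4.91, 5.37, 5.84 and 5.84. On ENDO sham arrays 1 to 3 it was 5.45, 5.18 and 5.45. These groups overlapped as well: 4 of 5 infarction arrays lay above the sham mean, and array 2 was the lowest of all 8. The share of all tested probe sets whose ENDO infarction arrays all lay above the sham arrays was 3.02%.

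Il21 differed by -0.13 ± 0.30 (log2, SE) in ENDO cells, with limma's adjusted p = 0.931 over all 28941 probe sets. Il4 differed by 0.25 ± 0.24 (SE), with limma's adjusted p = 0.780. Neither passed the threshold of 0.05, which 0.888% of the probe sets did in this comparison (0.352% higher and 0.536% lower). The exact permutation test of the difference of means over the 8 ENDO arrays, two-sided, gave p = 0.393 for Il21 and p = 0.393 for Il4, where the smallest p that 56 splits allow is 0.0357. A missed threshold does not show that the levels were alike. The 95% interval of the ENDO difference ran from -0.77 to 0.51 for Il21 and from -0.25 to 0.75 for Il4. It rests on a spread shared with the TCRM arrays. With the ENDO arrays alone the SE was 0.16 for Il21 and 0.26 for Il4. The TCRM infarction arrays, whose values chose the genes, lay 2.37 to 3.75 above their own sham mean for Il21 and 1.82 to 2.29 for Il4, which is given as a description.

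The response to infarction, TCRM minus ENDO, was 3.33 ± 0.42 (log2, SE) for Il21 and 1.79 ± 0.33 (SE) for Il4. It holds the contrast that named the genes and is given with no test. Ordered by mean signal, the groups ran from TCRM infarction (7.98) over ENDO sham (4.90 ± 0.25, SD, n = 3) and TCRM sham (4.79) to ENDO infarction (4.77 ± 0.19, SD, n = 5) for Il21. For Il4 the order was TCRM infarction (7.44), ENDO infarction (5.61 ± 0.47, SD, n = 5), TCRM sham (5.41) and ENDO sham (5.36 ± 0.16, SD, n = 3). In both orders the last 3 groups overlapped in their ranges, and the places of TCRM and ENDO groups rest on separate normalization.

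**Figure D2:**
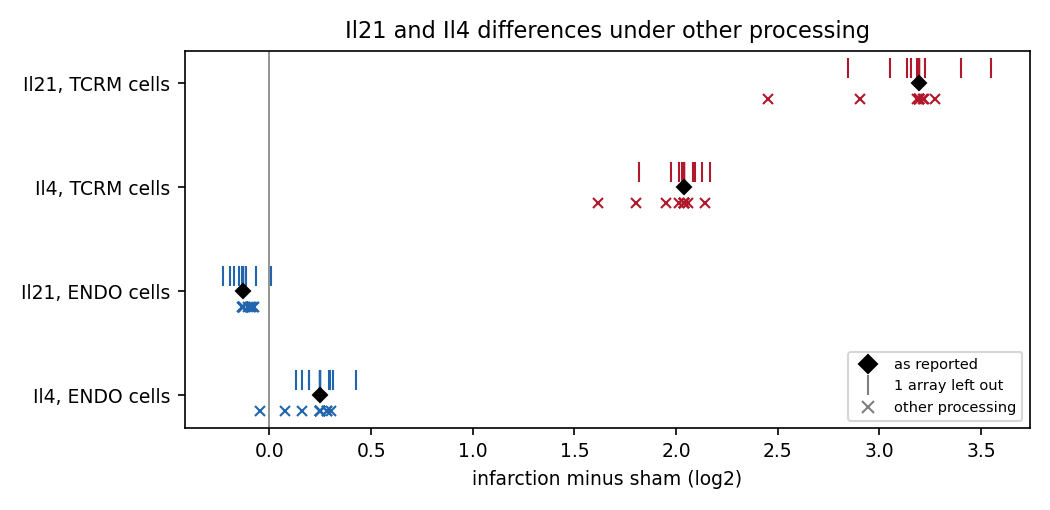
Difference in array signal between infarction and sham (log2) for Il21 and Il4 in each population. The diamonds are the values reported here, the ticks are values with 1 array left out, and the crosses are values under other processing. All TCRM values lie between 1.62 and 3.55, while ENDO values lie between -0.23 and 0.43.

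Genes with profiles like those of the 2 cytokines were sought among 154 other named genes that passed the signal limit. Likeness was the root mean square difference over the 16 arrays after subtracting each population's own sham mean. All candidates owe their names to the authors' tables, so this describes the named genes and not the whole array. The 5 closest to Il21 were Gpm6b (0.47), Sccpdh (0.47), Egln3 (0.58), Tigit (0.59) and Angptl2 (0.59), against a median of 1.21 on the log2 scale. Gpm6b is a membrane glycoprotein, Egln3 an oxygen-sensing prolyl hydroxylase, and Tigit an inhibitory receptor of T and NK cells. The 5 closest to Il4 were Tmem2 (0.30), Angptl2 (0.32), Nav2 (0.36), H1f0 (0.37) and Abhd4 (0.38), against a median of 0.66. H1f0 is a linker histone and Angptl2 a secreted protein related to the angiopoietins. Angptl2 is on both lists.

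The cytokines were not each other's closest gene. They differed by 0.78 from each other, which made Il4 number 12 of 154 for Il21 and Il21 number 107 of 154 for Il4. The measure counts the size of a difference as well as its pattern. With the 8 TCRM arrays alone, 5 of the 5 genes for Il21 and 4 of the 5 for Il4 were named again, and with a correlation in its place 1 and 2 were. The names therefore depend on the measure.

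**Figure D3:**
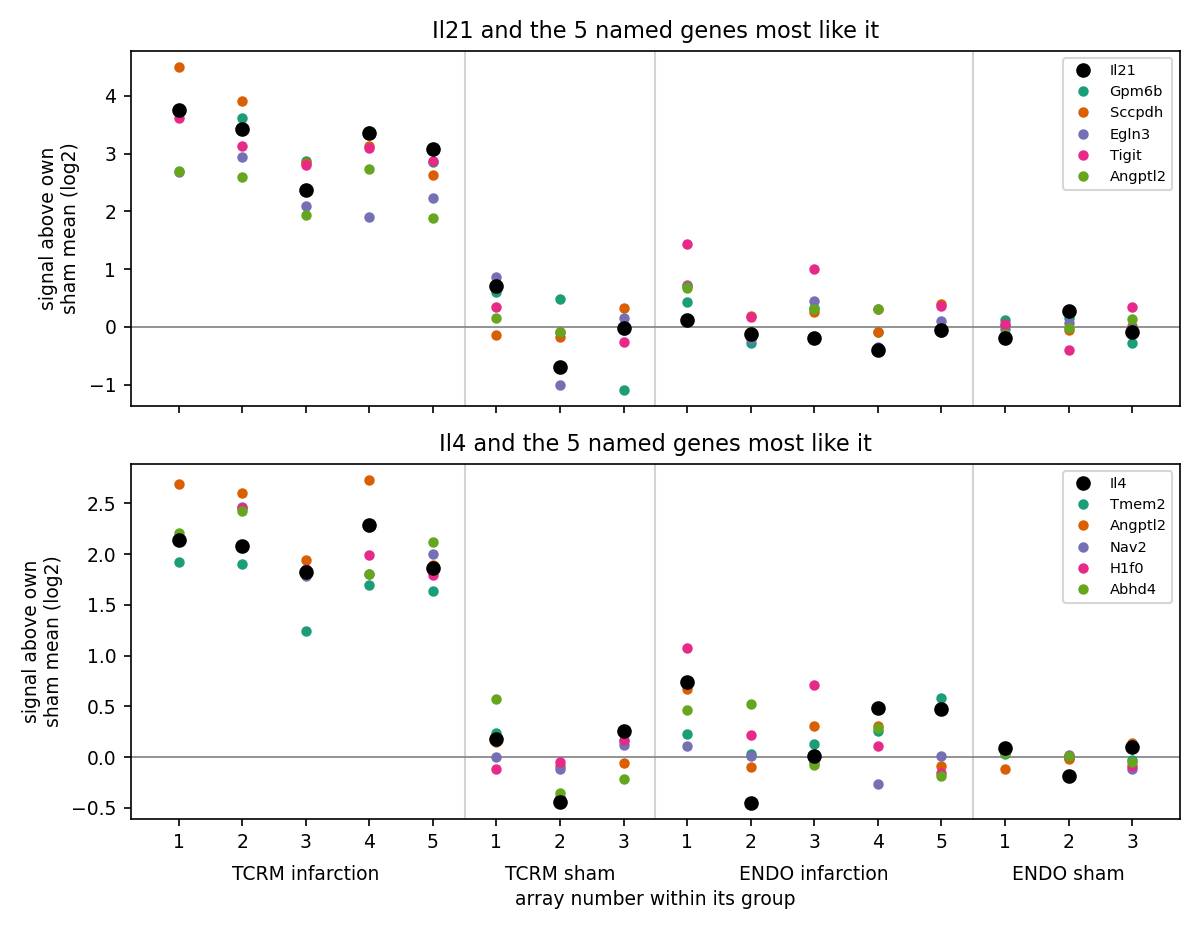
Signal of Il21 (top, black) and Il4 (bottom, black) and of the 5 named genes most like each, on the 16 arrays. The y axis is the signal above the sham mean of the same population (log2), and the x axis gives the array number within its group. Il21 lies between 2.37 and 3.75 on the TCRM infarction arrays and between -0.40 and 0.12 on the ENDO infarction arrays.

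Other genes of the pathway were read from 4 lists of 91 genes besides Il21 and Il4, of which 11 are named in the authors' tables. None of the 17 receptor and signalling genes of the 2 cytokines (such as Il21r, Il4ra, Stat3 and Stat6) is among them, so those genes were not analysed here. In TCRM cells 9 of the 11 passed limma's threshold upwards and 0 downwards, where 0.667% and 0.0898% of all probe sets did (0.757% in either direction). The authors had named them for a difference in the same arrays, so the count is no independent evidence and nothing is read from it. In ENDO cells 0 of the 11 passed limma's threshold, and 1 (Tigit) had an unadjusted p under 0.05. Of all 28941 probe sets, 0.888% passed there and 3321 had an unadjusted p under 0.05 by limma, so nothing is read from these counts. Their median ENDO difference was 0.24 (log2) against 0.00495 over all probe sets, and 9 of 11 were above 0 against 50.9% of all. The 11 were picked through the authors' tables, so all probe sets are an unlike comparison. Of the genes described outside the 4 lists, all but Nav2 (-0.04) and Trat1 (-0.25) also lay above 0 in ENDO cells. The shift is therefore not particular to the helper genes.

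Of 6 named cytokine genes out of 27 on the list, Il21 had the highest TCRM difference, followed by Csf1 (2.28 ± 0.26, log2, SE), Il4, Tgfb3 (1.72 ± 0.22), Tnfsf8 (1.35 ± 0.24) and Ccl5 (1.31 ± 0.35). Csf1 is the macrophage colony-stimulating factor, Tgfb3 a transforming growth factor, Tnfsf8 the ligand of CD30, and Ccl5 a chemokine. Of the 4 besides Il21 and Il4, Ccl5 alone did not pass in TCRM cells (limma's adjusted p = 0.121), and it passed without TCRM infarction array 3 (0.0120). In ENDO cells their differences lay between -0.13 for Il21 and 0.26 for Csf1. There 0 of 6 passed limma's threshold (0.888% of all probe sets did), with 0 at an unadjusted p under 0.05 (3321 of 28941 probe sets were).

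Of 31 transcription factors 3 are named. Maf, which activates both cytokine genes, differed by 2.02 ± 0.23 (log2, SE) in TCRM cells, near the 2.04 of Il4. Its mean signal was 9.37 ± 0.34 on the infarction arrays (SD, n = 5) and 7.35 ± 0.05 on the sham arrays (SD, n = 3). Nfil3, a factor of type 2 cytokine expression in T cells, differed by 1.24 ± 0.24, and Prdm1, the Blimp-1 gene that opposes the follicular helper programme, by 0.85 ± 0.19 without passing (limma's adjusted p = 0.0616). In ENDO cells Maf differed by 0.19 ± 0.23, with limma's adjusted p = 0.848.

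Of 18 receptors and membrane proteins of follicular helper cells 4 are named. They are Gpm6b (3.30 ± 0.34, log2, SE, in TCRM cells), Tigit (3.10 ± 0.28), Pdcd1 (1.97 ± 0.30, the inhibitory receptor PD-1) and S1pr2 (1.26 ± 0.24, a sphingosine-1-phosphate receptor that helps to keep cells in germinal centres). All 4 passed limma's threshold in TCRM cells, where 0.667% of all probe sets did upwards. The authors had named these genes for a difference on the same arrays, so nothing is read from that count. In ENDO cells 0 of the 4 passed, where 0.888% of all probe sets did, and their differences lay between 0.06 and 0.66. Nfil3, S1pr2 and Tnfsf8 no longer passed in TCRM cells with some single arrays left out. Leaving out sham array 2 gave limma's adjusted p of 0.131, 0.129 and 0.0511 for them, and leaving out sham array 3 gave 0.0894, 0.0985 and 0.0638. Nfil3 also failed without infarction array 1 (0.0602), 2 (0.0694) or 4 (0.0570), and S1pr2 without infarction array 1 (0.0506) or 2 (0.0501), by limma's adjusted p.

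**Figure D4:**
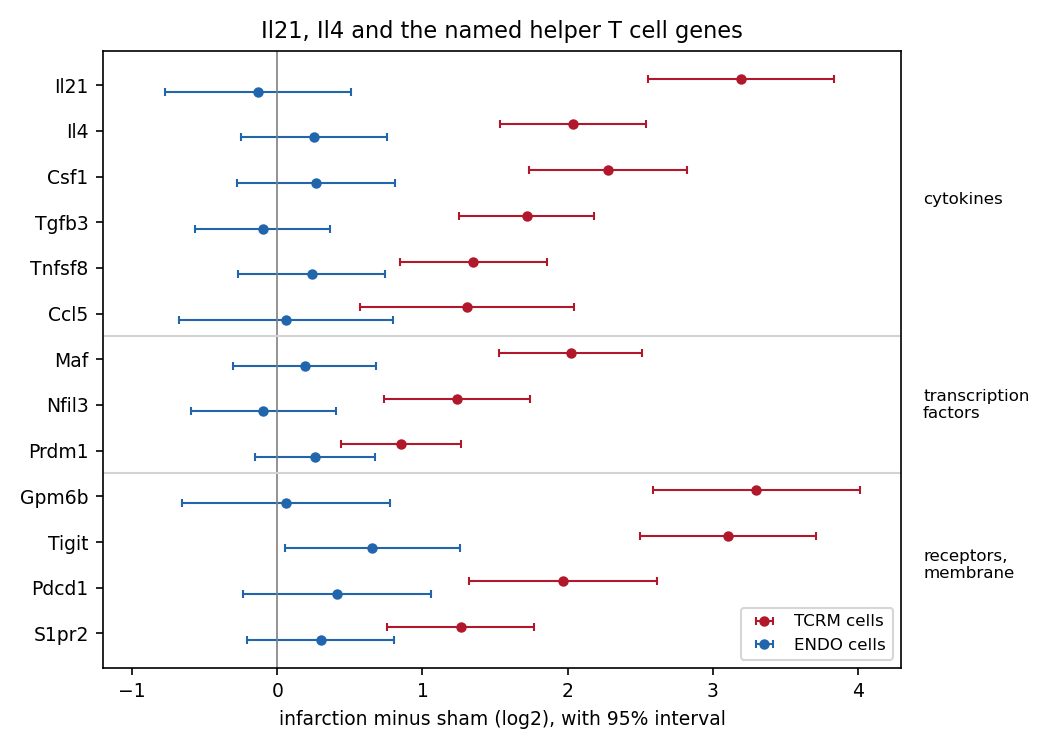
Difference between infarction and sham (log2, with 95% intervals) for Il21, Il4 and the 11 other named helper T cell genes in TCRM and ENDO cells. The TCRM differences run from 0.85 for Prdm1 to 3.30 for Gpm6b, and all these genes were named for them by the authors. The ENDO differences run from -0.13 to 0.66, and the Tigit interval lies above 0 before adjustment.

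Markers of other cells were read on the same arrays as far as the authors' tables name them, which they do for a difference in one of the populations. The p-values below come from the arrays that named these genes, so they are no independent evidence and nothing is read from them. Of 7 B cell markers Cd22 alone is named, at 7.04 to 7.24 after infarction and 5.52 to 6.32 after sham (log2 signal), and it rose by 1.17 ± 0.15 (SE, limma's adjusted p = 0.00115). Of 8 myeloid markers Stfa3 alone is named, at 7.80 to 9.51 after infarction and 3.21 to 4.19 after sham, and it rose by 4.62 ± 0.34 (SE, limma's adjusted p = 1.4e-05). Close paralogs make its identity uncertain. In ENDO cells Cd22 differed by 0.23 and Stfa3 by 0.25, with limma's adjusted p = 0.628 and 0.866. Nkg7 of the 6 CD8 T and NK cell markers differed by 1.06 ± 0.24 without passing (limma's adjusted p = 0.0686), and it passed with TCRM infarction array 3, TCRM sham array 1 or ENDO infarction array 1 left out (0.0406, 0.0212 and 0.0378). Prdm1, the sole named one of 4 plasma cell markers, is given above, and it passed without TCRM infarction array 5 (limma's adjusted p = 0.0132) or TCRM sham array 2 (0.0380). Of 10 T cell markers Trat1, an adaptor of the T cell receptor, was lower by -1.10 ± 0.27 without passing (limma's adjusted p = 0.0963), and it passed without TCRM infarction array 3 (0.0300) or ENDO infarction array 5 (0.0193). Trat1 also passed under quantile normalization of 16 arrays (0.0478) or within each population (0.0334), with array weights (0.0106) and with a weight per population (0.0233), by limma's adjusted p. None of the 3 NKT cell or 6 basophil and mast cell markers is named, although these cells can make interleukin 4. Defining T cell genes such as Cd3e and Cd4 were not analysed here, so the cell type rests on the labels. The part of other cells in the Il21 and Il4 values was not tested.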

How the data were processed

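Array signal was read for 2 populations of sorted CD4+ T cells. Per the submitters' processing notes, Affymetrix Expression Console and Transcriptome Analysis Console were used, with versions, summarisation and genome build not given in the sources used here. The value table the authors deposited gives log2 signal, 41345 probe sets by 16 arrays. Tables the authors deposited for each population list probe sets at 2-fold and p under 0.05, per the file headers. They hold bi-weight log2 averages, fold, p-value and FDR (written with decimal commas). The smallest absolute fold as read was 2.01 in the TCRM table and 0.3 in the ENDO table, and how the ENDO folds are written was not settled here. Symbols come from these tables alone.

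Members and lists were chosen with earlier results of these data known. Probe sets with mean signal under the 30th percentile (log2 4.72) were dropped (12404), and 28941 were tested. The model, 1 mean for each group, used all 16 arrays (limma 3.58.1, R 4.3.3, lmFit and eBayes), with Benjamini-Hochberg adjustment of two-sided p-values over all 28941. Exact permutation tests used scipy 1.17.1. The ENDO and TCRM groups share this fit's spread. Named were the members, for each the 5 most like genes, and the named members of 4 pathway and 7 marker lists. The fit was tested on simulated data. Alternatives were other filters, scalings, weights and spreads, the source name labels, a replicate block and each array left out. A block of the number within each operation was chosen after seeing the data.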

Additional observations from a re-analysis of the deposited data

Results flagged for a closer look

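In the groups of 5 arrays, 0 of 24 genes described had 1 array far from the other 4 in TCRM infarction and 3 of 24 did in ENDO infarction, where chance gives about 1 in 20. None of them was Il21 or Il4. The gap to the nearest array divided by the range was 0.844 for Prdm1 (6.62 against 6.36, log2 signal) and 0.808 for Nkg7 (8.32 against 7.66), both on ENDO infarction array 1. It was 0.711 for Tnfsf8 on ENDO infarction array 5 (7.00 against 7.50).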

How the results depend on the processing

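In TCRM cells Il21 and Il4 were higher after infarction under all 27 alternatives, and neither passed in ENDO cells under any of them. Several alternatives, such as another filter or an ENDO array left out, cannot move the TCRM difference and are no check of it. With infarction 5 counted as sham the TCRM differences (log2) were 2.45 for Il21 and 1.62 for Il4 and the Il21 response TCRM minus ENDO was 2.59. With array weights the Il4 response was 2.19 and Il4 in ENDO cells turned to -0.048. The cause was not tested. With 1 array left out Il21 ranged from 2.85 to 3.55 in TCRM cells, from -0.23 to 0.0071 in ENDO cells (turned without ENDO sham array 2, in the permutation test too) and from 2.98 to 3.68 for the response. Il4 ranged from 1.82 to 2.17, 0.13 to 0.43 and 1.57 to 1.92. Exact permutation p-values with 1 ENDO array left out were at least 0.286 for Il21 and 0.171 for Il4.

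The count of called probe sets, used as background only, was 219 in TCRM and 257 in ENDO cells. It was 131 and 442 after quantile normalization of 16 arrays, 118 and 0 (limma, 2333 at unadjusted p under 0.05) with the arrays of 1 population alone, 377 and 1529 with array weights and 556 and 93 with a weight per population. It was 0 in TCRM cells with infarction 5 counted as sham (limma, 2051 at unadjusted p under 0.05). With 1 array left out it ranged from 113 to 328 and from 51 to 639. The TCRM count fell to 127, 124, 113 and 127 without TCRM infarction arrays 1 and 2 and TCRM sham arrays 2 and 3. Leaving out TCRM infarction arrays 2, 3 and 4 gave ENDO counts of 151, 162 and 155, leaving out ENDO infarction arrays 1 and 5 gave 152 and 639, and it was 51, 170 and 117 without ENDO sham arrays 1, 2 and 3.

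Deviations of same-numbered TCRM and ENDO arrays correlated between -0.089 and 0.077 over 8 pairs, with 0 above 0.1. The cell populations differ and the groups are small, so these values cannot show whether same-numbered arrays share an animal. The main fit did not pair them. The replicate block joined all arrays with the same number, infarction and sham alike. Arrays of different operations do not share an animal, so this block is no check of pairing. With it the ENDO count was 129. Il21 and Il4 differed by 3.22 and 1.95 in TCRM cells and by -0.11 and 0.16 in ENDO cells. In TCRM cells Nfil3 lost its call while Nkg7 and Prdm1 gained one. With the number within each operation as the block, chosen after seeing the data, the responses were 3.33 and 1.79. Of the other genes Egln3, Pdcd1, Tnfsf8, Nfil3 and S1pr2 did not pass with the TCRM arrays alone, and Nfil3 did not after quantile normalization of 16 arrays (limma's adjusted p = 0.0875). Nkg7 and Prdm1 passed with a weight per population (0.0243 and 0.0259), and Nkg7 with array weights (0.0454). With infarction 5 counted as sham, no other gene described passed in TCRM cells.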
